A study of Homo sapiens with 4 samples.

Results

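Oncofetal liver genes are active in the fetal liver, fall silent in the adult organ and are often switched on again in liver tumours. They were examined here in HepG2, an established human liver carcinoma line, and were named by a fixed set of 10 symbols: AFP, GPC3, H19, IGF2, IGF2BP1, IGF2BP3, DLK1, LIN28B, HMGA2 and EPCAM. A member was read from the array rows that carried its symbol alone, and the brightest such row stood for the gene. This gave 7 of the 10 members, among 14147 genes tested. H19, IGF2 and HMGA2 each lay only in a row shared with other symbols, so no level is given for them.

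The cells had been transfected with anti-miR-191, an oligonucleotide that blocks miR-191, or with anti-miR-NC as negative control, and both groups received the same lipid reagent. Its dose and the time of harvest are not analysed here. The treatment was done in 2 independent experiments, each with 1 anti-miR-191 array and 1 control array, so each group held 2 arrays. The question put to each member is whether its transcript level moves with miR-191 inhibition. All levels are log2 intensities after RMA, the authors' background correction, normalization and summary of probes, and a change is anti-miR-191 minus control on that scale. Array medians lay between 4.37 and 4.43, and no 2 arrays were identical. The spread of values was wider with anti-miR-191, with interquartile ranges of 3.38 and 3.43 against 3.18 and 3.24 in controls. The part of this in the changes was not tested. Of 12 markers of liver epithelium 10 were tested, and their median level lay between 10.1 and 10.95 on the 4 arrays, while the median of 15 tested markers of other cell types lay between 4.56 and 4.77. Both lists held exceptions, since the lowest liver markers, FGB or FGG, read between 4.09 and 4.84, and LYZ, the highest marker of other cell types, read between 9.23 and 9.65. An array of a whole culture cannot tell fewer cells of a kind from less RNA per cell.

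The members have different tasks. AFP encodes alpha-fetoprotein, the fetal counterpart of albumin in plasma. GPC3 and EPCAM sit on the cell surface, the first as a heparan sulfate proteoglycan and the second as an adhesion molecule of epithelial and progenitor cells, and DLK1 is a membrane protein related to Notch ligands that marks hepatoblasts. IGF2BP1, IGF2BP3 and LIN28B bind RNA. LIN28B blocks the maturation of let-7 microRNAs, and let-7 in turn represses LIN28B, IGF2BP1, HMGA2 and MYC. H19 and IGF2 are neighbouring imprinted genes, and H19 is a noncoding RNA.

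A microRNA recognises its targets mainly through bases 2 to 8, the seed. The mature sequences of the inhibited microRNA and of 5 let-7 microRNAs are given to show that they carry different seeds, with the seed in capitals. The loci of let-7d, let-7e, let-7f and let-7i were tested below, and let-7a is shown as the reference of the family (RefSeq, GRCh38.p14, 5′ to 3′). The labels do not say which arm of miR-191 the inhibitor was made against, and the 5p arm is shown.
hsa-miR-191-5p: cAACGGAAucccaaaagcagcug
hsa-let-7a-5p: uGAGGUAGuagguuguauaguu
hsa-let-7d-5p: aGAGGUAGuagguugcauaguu
hsa-let-7e-5p: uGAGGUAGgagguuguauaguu
hsa-let-7f-5p: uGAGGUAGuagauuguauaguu
hsa-let-7i-5p: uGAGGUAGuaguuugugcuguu
The 5 let-7 sequences share 1 seed, and it holds the same base as the miR-191-5p seed at 3 of 7 positions. Whether the members' transcripts hold sites for the miR-191 seed was not examined.

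Of the 7 members, IGF2BP1 rose after anti-miR-191 and the other 6 did not pass the test. A gene passed when its Benjamini-Hochberg adjusted p was under 0.05 in limma's paired fit, where the experiment is a block. That fit has 1 residual degree of freedom. In it 13.9% of all genes tested passed, 10.1% as higher and 3.77% as lower, so 1 of 7 is near the background. In the unpaired fit, which leaves the experiment out, 0 of 7 members passed against 3.91% of all genes, and limma's unadjusted p was under 0.05 for 1 member. The groups did not overlap for IGF2BP1 and, narrowly, IGF2BP3, both higher, and for DLK1, lower. That is 3 of 7, where 53.2% of all genes tested had groups that did not overlap, 29.4% with anti-miR-191 higher and 23.8% with it lower.

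IGF2BP1 encodes an RNA-binding protein that stabilises transcripts such as MYC and is abundant in fetal tissue. It read 9.15 after anti-miR-191 and 8.21 in the control of experiment 1, and 9.55 and 8.92 in experiment 2. Both treated arrays lay above both controls, although the controls themselves differed by 0.70. The controls averaged 8.56 ± 0.50 (SD, n = 2) and the treated arrays 9.35 ± 0.28 (SD, n = 2). The changes of 0.94 and 0.64 gave a mean of 0.79 ± 0.15 (SE), a 1.73-fold rise with a 95% interval from 0.43 to 1.15 on the log2 scale and limma's adjusted p = 0.016 in the paired fit. The call was lost without the block (limma's adjusted p = 0.162) and when all rows of the array were tested together (adjusted p = 0.053).

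IGF2BP3, the paralogue that is likewise silent in most adult tissue, read 4.69 after anti-miR-191 and 4.36 in the control of experiment 1, and 4.74 and 4.69 in experiment 2. The treated arrays were higher than the controls, in experiment 2 by 0.06. The lowest treated reading, 4.690, was only just above the highest control, 4.687. The mean change was 0.20 ± 0.15 (SE), with a 95% interval from -0.16 to 0.55 and limma's adjusted p = 0.467. These readings lie near the median of the markers of other cell types, so IGF2BP3 is not shown to be above background.

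The third family member, IGF2BP2, is expressed in adult tissue as well and belongs to the list of paralogues fixed for comparison. It read 7.05 after anti-miR-191 and 6.48 in the control of experiment 1, and 7.75 and 6.62 in experiment 2. It rose 1.80-fold (0.85 ± 0.18, SE), with limma's adjusted p = 0.019 in the paired fit, a call that was lost without the block (0.116), after quantile normalization (0.057) and with all rows tested. Thus IGF2BP1 and IGF2BP2 passed and IGF2BP3 did not, and whether the 3 changes differ was not tested.

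**Figure D1:**
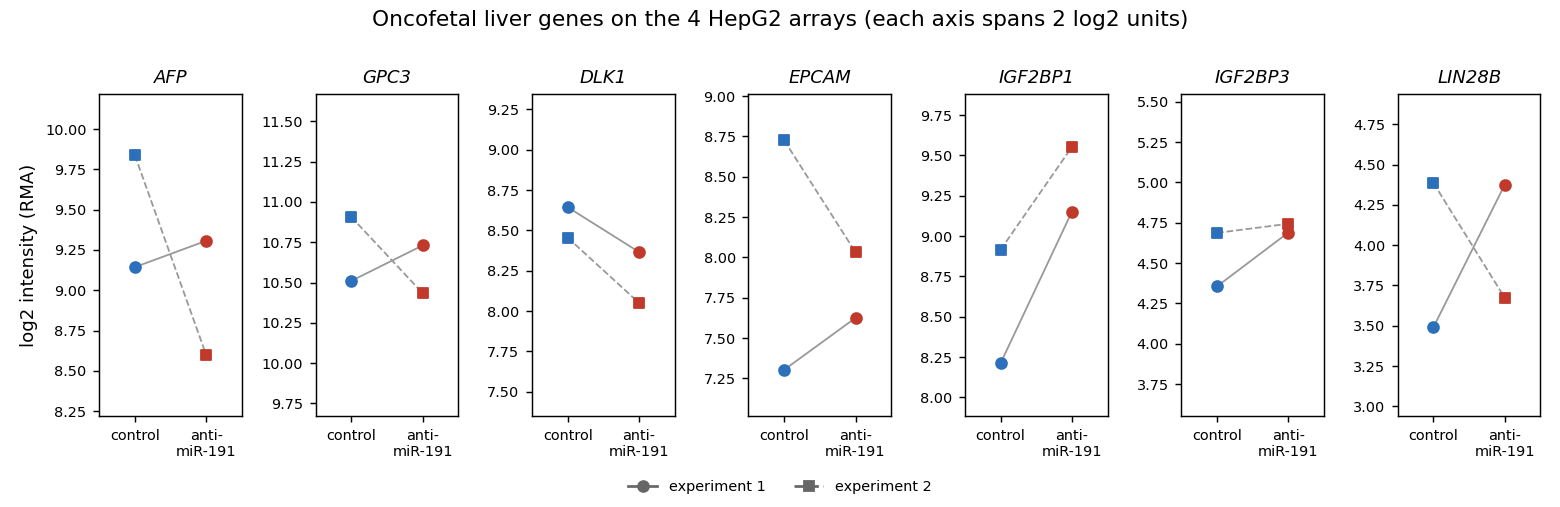
Log2 intensity (vertical axes, each spanning 2 units) of the 7 members in control and anti-miR-191 cultures, with circles and solid lines for experiment 1 and squares and dashed lines for experiment 2, 1 array per point. IGF2BP1 climbs and DLK1 descends in both experiments, while the lines of AFP, GPC3, EPCAM and LIN28B slope in opposite directions.

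AFP did not pass, and its changes had opposite signs in the 2 experiments. It read 9.31 after anti-miR-191 and 9.14 in the control of experiment 1, but 8.60 and 9.84 in experiment 2. The highest and the lowest reading both came from experiment 2, and the groups overlapped. The controls averaged 9.49 ± 0.49 (SD, n = 2) and the treated arrays 8.95 ± 0.50 (SD, n = 2). The changes were 0.16 and -1.24, a mean of -0.54 ± 0.29 (SE) with a 95% interval from -1.22 to 0.14 and limma's adjusted p = 0.285 in the paired fit and 0.390 in the unpaired fit. The changes of the 2 experiments lay 1.40 apart, and 0.290% of all genes tested had changes at least as far apart. Each experiment had 1 array per group, so this difference could not be tested.

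The array of experiment 2 with anti-miR-191 also had the lowest summed level of the 10 liver epithelial markers, 93.4 against 97.7 to 99.5 on the other 3 arrays. The part of this in the AFP values was not tested. The markers of other cell types had summed levels of 77.1 and 77.3 after anti-miR-191 and 77.1 and 76.4 in controls.

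ALB, the albumin gene, lies next to AFP in the same gene family and was looked at after its values were seen, because its arrays follow the same order of signs. It read 10.62 after anti-miR-191 and 10.14 in the control of experiment 1, and 9.65 and 10.58 in experiment 2, changes of 0.48 and -0.93. Like AFP it was higher in the first experiment and lower in the second, and it did not pass (limma's adjusted p = 0.677). Both promoters are classic targets of the liver factor HNF1. The 250 bases before each start site are given because AFP and ALB moved alike on these arrays, with matches to GTTAAT, a half-site of the HNF1 motif, or its reverse complement in capitals (RefSeq, GRCh38.p14, plus strand, chr4:73435971-73436220 for AFP and chr4:73404037-73404286 for ALB).
AFP: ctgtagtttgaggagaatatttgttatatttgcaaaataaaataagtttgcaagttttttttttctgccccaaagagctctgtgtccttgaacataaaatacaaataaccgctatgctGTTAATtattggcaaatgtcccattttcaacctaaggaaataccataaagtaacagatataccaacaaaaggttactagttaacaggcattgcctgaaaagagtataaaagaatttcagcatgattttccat
ALB: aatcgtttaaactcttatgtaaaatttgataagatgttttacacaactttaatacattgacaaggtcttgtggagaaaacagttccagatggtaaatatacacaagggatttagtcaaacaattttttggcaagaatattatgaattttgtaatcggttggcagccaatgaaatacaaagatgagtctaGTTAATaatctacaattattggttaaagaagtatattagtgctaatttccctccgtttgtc
The marked match begins 132 bases before the AFP start and 61 bases before the ALB start. Only exact matches were sought, so other forms of the HNF1 motif in these sequences are not marked. The motif occurs, on either strand, in 6.23% of 35116 promoters of the same length. Of the other members, LIN28B had 2 promoter sequences, IGF2BP3 had 1 and H19 had 1, and 0 of these held it. LIN28B had the same order of signs as AFP and ALB. Whether HNF1 has a part in any of these changes was not tested. A match of letters does not show binding.

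Of 16 further genes of the AFP cluster and its regulators, 10 were tested. In the paired fit 1 rose and 0 fell, which is near the 10.1% of all genes tested that rose. The median change was 0.25, against 0.01 over all genes tested. CEBPB, a transcription factor of the liver acute phase, rose 3.12-fold (1.64 ± 0.22, SE) in both fits (limma's adjusted p = 0.0050 and 0.028). The known repressors of AFP did not pass. Their changes were -0.33 ± 0.16 (SE) for ZHX2, 0.31 ± 0.17 for ZBTB20 and -0.04 ± 0.16 for ZFHX3, named for that role after their values were seen. ZBTB20, with readings between 3.50 and 4.05, is not shown to be above background. FOXA2 and CEBPA, factors of liver identity, had changes of 0.42 ± 0.16 and 0.42 ± 0.17 (SE) and did not pass either.

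GPC3 read 10.73 after anti-miR-191 and 10.51 in the control of experiment 1, and 10.43 and 10.91 in experiment 2. Again the control of experiment 2 was highest and the treated array of that experiment lowest. The changes of 0.22 and -0.47 gave a mean of -0.13 ± 0.19 (SE), with a 95% interval from -0.57 to 0.32 and limma's adjusted p = 0.724.

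The other glypicans tested, GPC1, GPC2, GPC5 and GPC6, did not pass, and GPC5, with readings between 3.31 and 3.57, is not shown to be above background. The largest change among them was that of GPC2, -0.35 ± 0.14 (SE, limma's adjusted p = 0.157). Of 16 genes that build, trim or release heparan sulfate glypicans, or pair with GPC3, 14 were tested, 2 rose and 1 fell, with a median change of 0.07. These counts are near those over all genes tested, of which 10.1% rose and 3.77% fell. B3GAT3, a glucuronyltransferase that completes the linker of the sugar chain, fell by 0.90 ± 0.14 (SE), with limma's adjusted p = 0.0087 and 0.223 without the block. EXTL3, which starts chain growth, rose 1.64-fold with limma's adjusted p = 0.018, a call that was lost without the block (0.061), after quantile normalization (0.051) and with all rows tested. NDST1, a sulfotransferase, rose 1.65-fold with limma's adjusted p = 0.039. It lost the call under each of the 3 other scalings, without the block (0.096) and with all rows tested.

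EPCAM was read from the brighter of its 2 rows. That row gave 7.62 after anti-miR-191 and 7.30 in the control of experiment 1, and 8.03 and 8.73 in experiment 2. The 2 controls differed by 1.42, which 0.226% of all genes tested equalled or exceeded. The changes were 0.32 and -0.69, a mean of -0.19 ± 0.23 (SE), with a 95% interval from -0.73 to 0.36 and limma's adjusted p = 0.666.

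The dimmer row disagreed in the sign of the mean. It read 7.70 and 7.06 in experiment 1, and 7.74 and 7.90 in experiment 2, treated before control. Its changes of 0.63 and -0.16 had a mean of 0.24 ± 0.20 (SE), with limma's adjusted p = 0.509. Both rows were higher with anti-miR-191 in experiment 1 and lower in experiment 2, and neither passed, so no direction is given for EPCAM.

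Of 16 partners and processing factors of EPCAM, 15 were tested, 4 rose and 0 fell, with a median change of 0.11. Of all genes tested 10.1% rose and 3.77% fell. ST14, the membrane protease matriptase, rose 2.42-fold (1.27 ± 0.22, SE) and CLDN1, a tight junction claudin, rose 1.99-fold (0.99 ± 0.15). FHL2, which carries the cut EPCAM tail into the nucleus, rose 1.93-fold (0.95 ± 0.18). ADAM17, a sheddase that cuts EPCAM, rose 1.66-fold (0.73 ± 0.14), with limma's adjusted p = 0.017 in the paired fit and 0.056 without the block. ST14 had limma's adjusted p = 0.011, CLDN1 0.0079 and FHL2 0.015, and the FHL2 and ADAM17 calls were lost with all rows tested. PSENEN, a subunit of the gamma-secretase that makes the next cut, had a change of -0.53 ± 0.15 (SE) and did not pass (limma's adjusted p = 0.054).

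DLK1 read 8.37 after anti-miR-191 and 8.64 in the control of experiment 1, and 8.05 and 8.45 in experiment 2. Both treated arrays lay below both controls. The changes of -0.28 and -0.40 agreed in sign and lay 0.13 apart, the smallest gap among the 7 members. The mean was -0.34 ± 0.15 (SE), with a 95% interval from -0.68 to -0.003, an unadjusted p of 0.049 and limma's adjusted p = 0.175, so DLK1 did not pass.

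DLK1 is imprinted together with MEG3, RTL1 and DIO3 nearby. The changes of MEG3 were 0.42 and -0.45, those of RTL1 were -0.73 and 0.01, and those of DIO3 were -0.001 and 0.12. None of the 3 passed. RTL1 and DIO3 had readings between 3.37 and 4.09. MEG3 read between 4.34 and 4.92, around the median of the markers of other cell types. None of the 3 was shown to exceed background. Of 17 imprinted genes 14 were tested and 1 rose, GRB10, with a median change of -0.01. That count is near the 10.1% of all genes tested that rose.

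LIN28B read 4.38 after anti-miR-191 and 3.49 in the control of experiment 1, and 3.67 and 4.39 in experiment 2. The groups overlapped completely. The changes of 0.88 and -0.71 lay 1.60 apart, and 0.148% of all genes tested had changes at least as far apart. Changes of at least 1.5-fold in opposite directions, as here, occurred in 25 of 14147 genes, or 0.177%. The mean was 0.09 ± 0.32 (SE), with a 95% interval from -0.67 to 0.84 and limma's adjusted p = 0.897. All 4 readings lie below the median of the markers of other cell types, so LIN28B is not shown to be above background on these arrays.

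**Figure D2:**
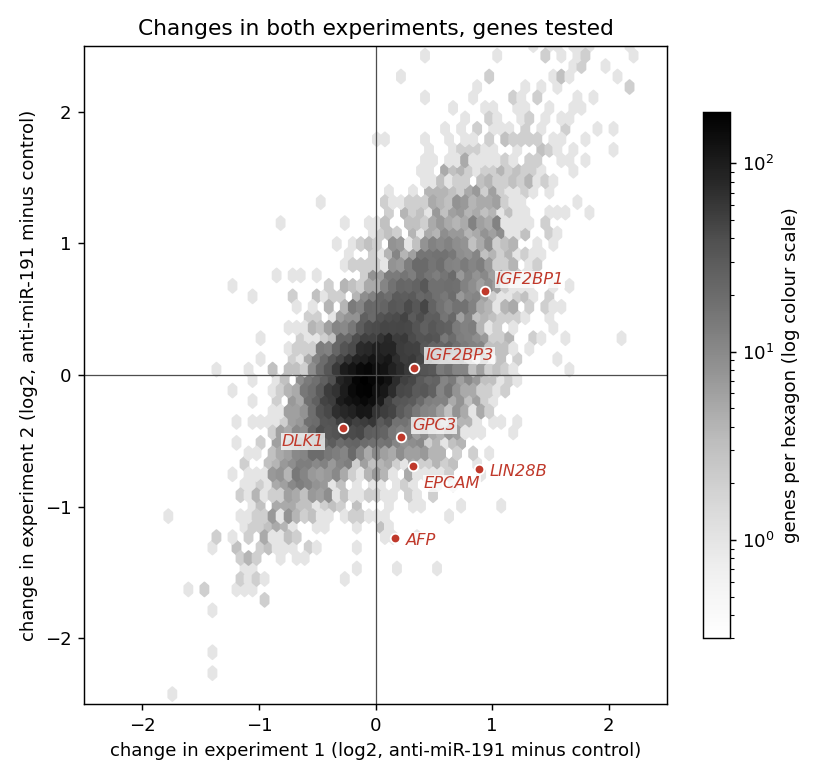
Log2 change (anti-miR-191 minus control) in experiment 1 (horizontal) against experiment 2 (vertical), with shaded hexagons for the number of genes tested and red points for the 7 members. The axes end at 2.5 and leave out 40 genes. LIN28B, AFP, EPCAM and GPC3 lie at the lower right, higher in experiment 1 and lower in experiment 2, and IGF2BP1 lies in the upper right.

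Thus AFP, GPC3, EPCAM and LIN28B, 4 of the 7 members, were higher after anti-miR-191 in experiment 1 and lower in experiment 2. Over all genes tested 15.9% had that order of signs, and 30.4% had changes of opposite sign in either order. In these 4 and in IGF2BP1 and IGF2BP3 the control of experiment 2 read above the control of experiment 1, by between 0.33 and 1.42. The median change of the 7 members was 0.32 in experiment 1 and -0.47 in experiment 2, against 0.02 and 0.01 over all genes tested.

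**Figure D3:**
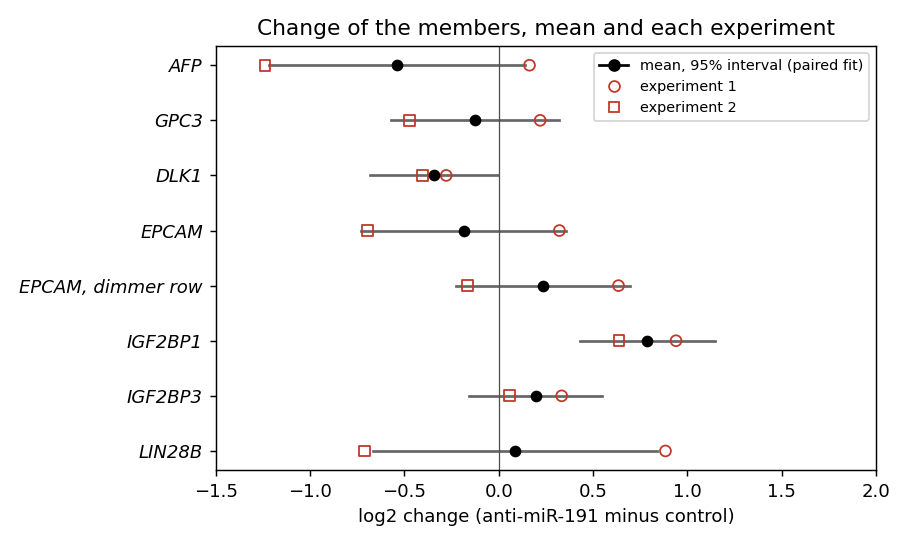
Mean log2 change (black points) with the 95% interval of the paired fit (lines) for the 7 members and the dimmer EPCAM row, with open circles for experiment 1 and open squares for experiment 2. The interval of IGF2BP1 runs from 0.43 to 1.15 and that of DLK1 ends at -0.003, while the others cross 0.

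Genes around LIN28B and let-7 were read as a list, chosen with earlier results of these data known and not tested as a set. Whether let-7 has a part in their changes was not tested. Of 19 genes that act with LIN28 or are known let-7 targets, 16 were tested. The paired fit called 5 higher and 0 lower. The unpaired fit called 2 higher, where 3.91% of all genes tested passed in either direction. The median change was 0.32, against 0.01 over all genes tested, of which 10.1% rose in the paired fit. MYC, a growth transcription factor repressed by let-7, read 10.11 and 10.52 after anti-miR-191 against 8.63 and 8.50 in controls. It rose 3.36-fold (1.75 ± 0.17, SE), with limma's adjusted p = 0.0022.

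CDC25A, the phosphatase that activates cyclin-dependent kinases, rose 2.19-fold (1.13 ± 0.20, SE), with limma's adjusted p = 0.012, and 0.069 without the block. TUT7, a uridylyltransferase that acts on the let-7 precursor, rose 1.91-fold (0.93 ± 0.16) from control levels of 4.05 and 4.28, which are not shown to be above background. IGF1R is described below, and IGF2BP2 above. LIN28A, the paralogue of LIN28B, had a change of 0.53 ± 0.17 (SE) and CDK6 one of 0.52 ± 0.16, and neither passed (limma's adjusted p = 0.092 and 0.073). LIN28A read 3.97 and 3.98 in controls and is not shown to be above background there.

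The arrays carry rows for microRNA precursors, which do not measure the mature form apart. Of 13 let-7 and H19 microRNA loci 4 were tested, and 0 passed in either limma fit, with 1 at an unadjusted p under 0.05 in each. MIRLET7F2 read 3.66 and 3.43 after anti-miR-191 against 4.08 and 3.99 in controls, a change of -0.49 ± 0.15 (SE) with limma's unadjusted p = 0.010 and adjusted p = 0.065. MIRLET7D had a change of -0.35 ± 0.17, MIRLET7E -0.05 ± 0.15 and MIRLET7I 0.09 ± 0.14. MIRLET7F2, MIRLET7D and MIRLET7E lay below the median of the markers of other cell types on all 4 arrays, so none of these 3 was shown to exceed background.

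IGF2 signals through the receptor IGF1R and is cleared by IGF2R. Of 16 genes of IGF2 signalling 13 were tested, 4 rose and 0 fell, where 10.1% of all genes tested rose and 3.77% fell. In the unpaired fit 3 of the 13 passed, all higher, where 3.91% of all genes tested passed. IGFBP1 was at the edge there (limma's adjusted p = 0.04996). The median change of the list was 0.04. IGFBP1, a binding protein secreted by liver, read 10.09 and 11.17 after anti-miR-191 against 8.71 and 9.02 in controls and rose 3.39-fold (1.76 ± 0.20, SE). GRB10, an adaptor that restrains the receptor, rose 3.21-fold (1.68 ± 0.15), and IRS1, the docking protein downstream of it, rose 2.97-fold (1.57 ± 0.15).

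IGF1R itself read 7.63 and 8.38 against 6.95 and 7.49 and rose 1.72-fold (0.79 ± 0.15, SE), with limma's adjusted p = 0.015, and 0.195 without the block. IGFBP1, GRB10 and IRS1 had limma's adjusted p = 0.0035, 0.0017 and 0.0022. IGF2R had a change of 0.04 ± 0.15. IGFBP7 had a change of -0.54 ± 0.16 and did not pass (limma's adjusted p = 0.064), nor did INSR, the insulin receptor, at 0.39 ± 0.16.

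**Figure D4:**
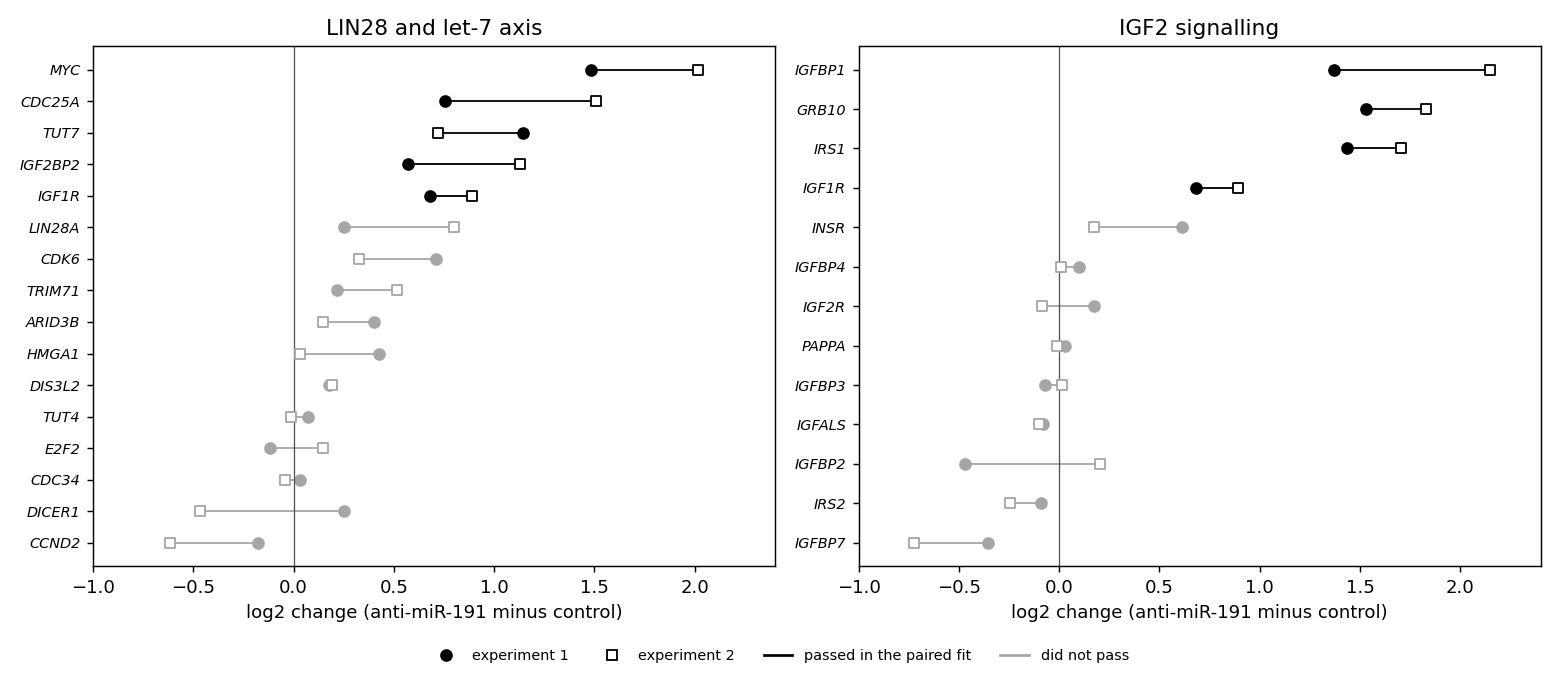
Log2 change (anti-miR-191 minus control) of each tested gene of the LIN28 and let-7 axis (left) and of IGF2 signalling (right), with filled circles for experiment 1 and open squares for experiment 2. Black marks genes that passed in the paired fit, 5 on the left and 4 on the right, and grey those that did not.

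Lists of progenitor and of mature liver genes were read beside the members. Of 19 genes of hepatic progenitors and liver tumours 15 were tested and 1 rose, SOX4, a transcription factor of progenitor cells, by 2.18-fold (1.12 ± 0.15, SE, limma's adjusted p = 0.0050). The median change was 0.06. MDK, a heparin-binding growth factor, had a change of -0.37 ± 0.15 and did not pass. Of 18 genes of mature hepatocytes 12 were tested, 0 rose and 1 fell, with a median change of -0.22. Over all genes tested 10.1% rose and 3.77% fell, so the counts of both lists are near the background. TTR, the thyroxine carrier transthyretin, read 10.00 and 9.70 after anti-miR-191 against 11.00 and 10.77 in controls and fell by 1.04 ± 0.14 (SE, limma's adjusted p = 0.0057). CPS1, the first enzyme of the urea cycle, and APOA1 had changes of -0.57 ± 0.18 and -0.48 ± 0.15 (SE) and did not pass (limma's adjusted p = 0.085 and 0.070).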

How the data were processed

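For the 4 arrays the authors deposited log2 intensity values in 1 table. Per the submitters' processing notes, RMA was run in Affymetrix Expression Console. Its version, the genome build and the set of arrays normalized together are not stated in these notes. The log base is that which RMA gives, and the values fit its range. The number of arrays limits the precision. GEO's platform annotation gave 1 symbol for 19460 of 33297 rows, while 1754 rows had several symbols and 12083 had none, and these stayed unnamed. The third of rows with the lowest mean (below 3.41) was left out, and the brightest row stood for a gene.

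Limma 3.58.1 (lmFit and eBayes, R 4.3.3) was fitted to all 14147 genes, with two-sided p-values adjusted over all of them (Benjamini-Hochberg) and a threshold of 0.05. The paired fit has 1 residual and 6.60 prior degrees of freedom, the unpaired fit 2 and 4.32. The pairing comes from the series text and the numbers in the titles. Deviations of same-numbered arrays correlated at 0.335. The fits were tested on simulated data.

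All 10 members are named. Of each list, up to 6 genes past the threshold and the 2 with the largest other changes may be named, and other relatives or neighbours of a member were named after their values were seen. The members and the 12 lists were chosen with earlier results of these data known, and no list is tested as a set. Alternatives covered the block, the filter, the scaling, the moderation, the rows and single arrays left out. Figures were drawn with matplotlib 3.10.9.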

Additional observations from a re-analysis of the deposited data

How the results depend on the processing

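Without the replicate block, 553 genes passed in place of 1961, and 0 members in place of 1 (1 with limma's unadjusted p under 0.05). With all rows tested together, 0 members passed in the paired fit (1 with limma's unadjusted p under 0.05) and 0 genes in the unpaired fit (4067 rows with limma's unadjusted p under 0.05). IGF2BP1 kept its direction under all 10 alternatives of the paired fit and its call under 8, with adjusted p between 0.013 and 0.162. EPCAM turned sign with the mean of its rows (0.025 in both fits) and, as an alternative chosen after seeing the data, with its dimmer row (0.24 in both fits). Quantile normalization gave 881 higher and 510 lower genes in the paired fit, against 1428 and 533, so the share of genes that rose, set beside the counts, depends on the scaling. In the unpaired fit it gave 385 higher of 548 genes, against 452 of 553. Leaving out single arrays, possible only without the block, gave between 0 and 339 genes, with 339 when the treated array of experiment 1 was left out and 0 when any of the other 3 was. The lone array of an arm is then assumed to vary like the other group, whose 2 arrays alone give the spread. Limma's unadjusted p was under 0.05 for between 1663 and 3178 genes in these settings. The changes then ranged from -0.32 to 0.072 for GPC3, from -0.36 to 0.53 for LIN28B and from -0.90 to 0.53 for EPCAM, while AFP (-0.89 to -0.18), DLK1 (-0.50 to -0.18), IGF2BP1 (0.44 to 1.14) and IGF2BP3 (0.03 to 0.36) kept their sign. LIN28B was not tested with rows below the median level left out. With 2 arrays per group precision is limited, and the widest 95% interval of a member, that of LIN28B, ran from -0.67 to 0.84.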

Other observations

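The genes named here had the same order of signs as AFP and were picked out for it after their values were seen. PEG10, an imprinted gene derived from a retrotransposon that is abundant in liver tumours, had changes of 0.57 and -0.71 in experiments 1 and 2. SPP1, which encodes the secreted phosphoprotein osteopontin, had changes of 0.51 and -0.60. ADAM10, a sheddase of the cell surface, had changes of 0.37 and -0.55, and HS2ST1, a heparan sulfate sulfotransferase, 0.52 and -0.42. None of the 4 passed in either fit. Of the 15 tested genes of hepatic progenitors and liver tumours, 5 were higher in experiment 1 and lower in experiment 2, and so were 5 of the 10 tested liver epithelial markers (33.3% and 50.0%), against 15.9% of all genes tested. The lists that hold the other genes named here were nearer that share, with 14.3% for the glypican genes, 20.0% for the EPCAM partners and 21.4% for the imprinted genes. IGF2 signalling was at 15.4% and the paralogues of the members at 0%. Among the 5 liver epithelial markers that were higher in experiment 1 and lower in experiment 2, APOB, the large apolipoprotein of liver, had changes of 0.02 and -1.09. In experiment 1 the change was also small for FGB (0.008) and TF (0.03), against 0.10 for FGG and 0.48 for ALB. The 50.0% share thus rests in part on the sign of small changes.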
